A study of Taeniopygia guttata with 10 samples.

Results

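The DNA methylation patterns of the zebra finch cell lines G266 and ZFTMA were compared with MethylCap-seq, in which sheared DNA is captured with a methyl-CpG binding domain and the captured fragments are sequenced. The comparison used 4 of the 5 MethylCap-seq libraries of a series of 10 samples, namely G266 treated with DMSO, G266 treated with AZA, ZFTMA treated with DMSO and ZFTMA treated with AZA, while untreated ZFTMA (ZFTMA_UT) served as a check of the ZFTMA pattern. AZA is an inhibitor of DNA methyltransferases and was dosed at 1 µM every 24 h over 72 h, and DMSO, its solvent, was dosed in the same way. Both lines grew out of spontaneous tumors that were not neuronal, and the study describes G266 as male and diploid and ZFTMA as female and tetraploid. By this description sex, ploidy, bird and tumor differed together between the lines and cannot be told apart. The log2 ratio of G266 over ZFTMA on Z, described below, was 0.32 with DMSO and 0.10 with AZA, and the number of Z copies was not tested. All 719917 Methylation Peaks of the deposited table, on 35 chromosome names of taeGut3.2.4, were used. The authors had defined these peaks from the coverage of the 2 libraries with DMSO added together, so that the AZA-treated and untreated libraries did not take part in the definition.

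In vertebrates, methylation of cytosine is found mainly at CpG sites and covers most of the genome outside active CpG-rich promoters. Because the capture protein binds several methylated CpGs together better than isolated ones, the fragment count of a region follows both its methylation degree and its density of CpGs. Bird genomes consist of a few large macrochromosomes and many small, gene-rich and GC-rich microchromosomes, and males carry a pair of Z chromosomes whereas females carry a Z and a W.

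The summed fragment counts in Methylation Peaks were 10358829 in G266_DMSO and 2549052 in G266_AZA, against 8574525 in ZFTMA_DMSO, 2722135 in ZFTMA_AZA and 10292141 in ZFTMA_UT. There was 1 library per line and treatment, so that the AZA pair and the DMSO pair were the only repeats of the comparison. The p-values measure only the spread between these pairs, which edgeR shares in part or fully over the features. The G266_DMSO library was the flattest of the 5. Its top 1% of peaks held 10.5% of its counts, against 18.0% in ZFTMA_DMSO and 19.996% in ZFTMA_UT. With AZA this share was 12.6% in G266 and 15.4% in ZFTMA. Set against the study's totals of non-duplicate reads, a smaller part of the reads lay in peaks with AZA than with DMSO. Within each treatment this part was smaller in G266 than in ZFTMA. The part of these differences between the libraries in the results below was not tested. The RNA-seq libraries of the same lines and treatments gave very similar profiles for both lines. Of 9388 genes with a mean of at least 5 CPM (counts scaled to a library sum of 1000000), 65 (0.692%) differed more than 2-fold between G266_DMSO and ZFTMA_DMSO, whereas 715 (7.62%) differed more than 2-fold between G266_AZA and G266_DMSO. The collagen gene COL1A2, a mesenchymal marker, reached 3860 and 1751 CPM in DMSO- and AZA-treated G266, against 4332 and 2444 in ZFTMA. Markers of other cell types were low in both lines but not all near 0. Of the blood cell genes, IRF8 reached 5.02 and 10.8 CPM in G266, against 5.05 and 14.4 CPM in ZFTMA, and MYO1F had 0 and 0.213 CPM, against 0 and 0.174 CPM. Of the muscle genes, ACTA1 reached 12.4 and 7.40 CPM in G266, against 12.8 and 10.03 CPM in ZFTMA, and TNNT2 and MYH3 stayed at or below 2.21 CPM in every library.

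In G266 a larger share of the captured fragments lay in narrow peaks and a smaller one in wide peaks. In the DMSO pair this is bound up with the definition of the peaks, which rested on the sum of these 2 libraries, so that a narrow peak could pass through G266_DMSO alone. Of the 2 bp peaks, 0.42% had no fragment in G266_DMSO, against 25.4% in ZFTMA_DMSO. The AZA pair, whose libraries did not enter the definition, had no fragment in 29.3% of them in G266 and 34.1% in ZFTMA. Peaks of 2 bp, which hold a single CpG, took 8.24% of the counts in G266_DMSO, against 3.33% in ZFTMA_DMSO and 2.45% in ZFTMA_UT. Peaks wider than 800 bp took 29.8% of the counts in G266_DMSO, against 41.9% in ZFTMA_DMSO and 44.6% in ZFTMA_UT. The same order was found with AZA. There, 2 bp peaks took 10.95% in G266 and 8.96% in ZFTMA, and peaks wider than 800 bp took 29.6% in G266 and 34.2% in ZFTMA. The 95% Wilson intervals of these shares were at most 0.113 percentage points wide and cover counting error only.

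**Figure D1:**
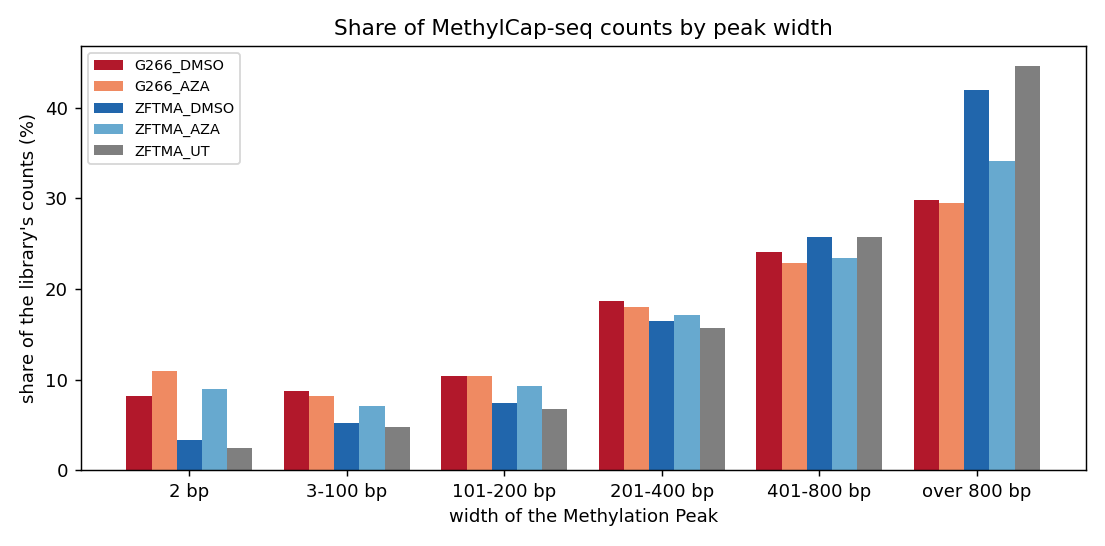
Share of the counts of each MethylCap-seq library (y axis, %) in Methylation Peaks of 6 width classes (x axis). Each bar is 1 library. The G266 bars lie above the ZFTMA bars of the same treatment in the 4 classes up to 400 bp and below them in both wider classes.

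Expressed as log2 of G266 over ZFTMA after scaling by column sums, the ratio ran from 1.31 at 2 bp to -0.49 over 800 bp in the DMSO pair, and from 0.29 to -0.21 in the AZA pair. The classes in between followed their width in both pairs. In the DMSO and AZA pair the ratios were 0.75 and 0.21 for peaks of 3 to 100 bp and 0.50 and 0.17 for those over 100 and up to 200 bp. For peaks over 200 and up to 400 bp they were 0.19 and 0.08, and for those over 400 and up to 800 bp they were -0.10 and -0.03. The difference between the 2 bp peaks and those over 800 bp, which does not depend on the scaling, was 1.80 in the DMSO pair, 0.50 in the AZA pair and 2.33 when G266_DMSO was set against ZFTMA_UT. Its mean over both treatments was 1.15 ± 0.92 (SD, n = 2). With 2 values of one sign and such a spread between them, the size of this tilt was poorly determined. Within ZFTMA, untreated over DMSO-treated cells had ratios of -0.45 at 2 bp and 0.09 over 800 bp. As ZFTMA_DMSO entered the definition of the peaks and ZFTMA_UT did not, the untreated library is no check of the tilt. A peak of 2 bp rested on few fragments. On average it held 4.31 counts in G266_DMSO and 1.41 in G266_AZA, against 1.44 in ZFTMA_DMSO and 1.23 in ZFTMA_AZA. In peaks over 800 bp these means were 67.3 and 16.4, against 78.2 and 20.2.

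Width alone did not set the ratio. Among peaks over 800 bp whose summed count over the 4 libraries was 50 to 75, the log2 ratio was 0.40 in the DMSO pair and 0.21 in the AZA pair. It was -0.34 and -0.15 for peaks of the same class with 100 to 200 counts, and -0.74 and -0.32 for those with at least 200 counts. In the band of 50 to 75 counts, peaks over 200 and up to 400 bp had ratios of -0.21 and -0.11. Wide peaks with few fragments thus held a larger share in G266, whereas peaks with many fragments for their width held a smaller one. The bands were drawn on the same counts as the ratios, and these values are given without a test. Over all peaks, the ratio was 1.15 and 0.30 below 10 counts and -0.85 and -0.35 at 500 counts or more.

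By chromosome, the large chromosomes and Z took larger shares of the captured fragments in G266, and the microchromosomes and unplaced sequence took smaller ones. Chromosomes 1, 1A, 2, 3 and 4 together held 46.3% of the counts of G266_DMSO and 46.9% of G266_AZA, against 39.8% of ZFTMA_DMSO and 44.7% of ZFTMA_AZA. Chromosomes 10 to 28 with 1B and 4A held 25.9% and 24.6% in G266, against 32.4% and 26.7% in ZFTMA. Chromosomes 5 to 9 held 18.1% and 17.8%, against 18.3% and 17.8%, and so differed little. Of the 34 chromosome names with at least 1000 counts, the quasi-likelihood test of edgeR (Benjamini-Hochberg adjustment) called 0 higher (0% of those tested) and 2 lower in G266 (5.88%) at an FDR of 0.1. At an unadjusted p below 0.05 there were 1 higher and 5 lower. The 2 called were unplaced sequence (Un) and chromosome 14. Un had a log2 fold change of -0.43 (SE 0.08, adjusted p = 0.000117, edgeR). Its log2 ratio was -0.63 in the DMSO pair and -0.22 in the AZA pair. Chromosome 14 had -0.28 (SE 0.09, adjusted p = 0.0528, edgeR), with -0.35 and -0.22 in the pairs. The SEs did not follow a chromosome's own disagreement between the pairs. Chromosome 2, with 0.23 and 0.08 in the pairs, had an SE of 0.17. With TMM normalization 1 was higher and 10 were lower, with the study's totals 25 were lower, and without the treatment block 1 was lower. Without G266_AZA or ZFTMA_AZA, 12 were lower, and without G266_DMSO or ZFTMA_DMSO 0 were, which ended both calls. These last fits set 1 library against 1 by edgeR's likelihood ratio test, so that the test changed along with the libraries.

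Chromosome Z had the highest ratio in the DMSO pair and in the fit, whereas in the AZA pair chromosome 12 lay above it (0.13). It held 770366 of the counts in G266_DMSO and 187698 in G266_AZA, against 510167 in ZFTMA_DMSO, 186568 in ZFTMA_AZA and 586084 in ZFTMA_UT. Its share was thus 7.44% and 7.36% in G266, against 5.95%, 6.85% and 5.69% in ZFTMA. The log2 ratio was 0.32 in the DMSO pair and 0.10 in the AZA pair, with a fitted log2 fold change of 0.21 (SE 0.10, adjusted p = 0.228), and did not pass the threshold. On this scale a 2-fold difference, as between males and females in their copies of Z, is 1. Whether the lines differed in their copies of Z was not tested. Z was followed by chromosome 2 with a fitted value of 0.16 and chromosome 4 with 0.15, which differed from Z by less than its standard error. Set against chromosomes 1, 1A, 2, 3 and 4 together, Z lay 0.10 higher in the DMSO pair and 0.03 higher in the AZA pair. This difference had the same sign in every width class, between 0.04 and 0.22 in the DMSO pair. In the AZA pair it was small, between 0.02 and 0.04, and these values are given without a test. In RNA-seq, the median log2 fold change of G266 over ZFTMA was 0.01 for 95 expressed genes on Z and -0.02 for 1437 on autosomes. Positions were known only for genes that the study lists for their response to AZA, so these values cover such genes alone.

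At the low end, apart from Un, were linkage group LG2 with -0.66, chromosome 25 with -0.49 and chromosome 16 with -0.45, none of which passed the test. LG2 holds 39 peaks and chromosome 16 holds 6. Chromosome 25 held 0.247% of the counts in G266_DMSO and 0.264% in G266_AZA, against 0.398% in ZFTMA_DMSO and 0.323% in ZFTMA_AZA. The ratio of a chromosome went with the width of its peaks. Across 32 chromosomes without unplaced sequence and linkage groups, the Spearman correlation of the log2 ratio with the median peak width was -0.96 in the DMSO pair and -0.73 in the AZA pair. All points come from the same libraries and chromosomes are not replicates, so this is a description. The DMSO and AZA pairs, which share no library, ranked the 34 names alike (Spearman correlation 0.83), and 29 of the 34 had the same sign in both. Within width classes chromosomes 1 to 4 with 1A still differed from chromosomes 10 to 28 with 1B and 4A in the DMSO pair. In the AZA pair they did so mainly among peaks over 200 bp. Un lay lower in the AZA pair among narrow peaks too. At 3 to 100 bp its log2 ratio was -0.07, against 0.21 on chromosomes 1 to 4 with 1A. The log2 ratio of chromosomes 1 to 4 with 1A less that of chromosomes 10 to 28 with 1B and 4A was between 0.19 and 0.38 in the 6 classes of the DMSO pair. In the AZA pair it was -0.04 at 2 bp, -0.00035 at 3 to 100 bp and 0.03 over 100 and up to 200 bp, and between 0.11 and 0.15 in the wider classes. These values are given without a test. Among peaks over 800 bp, the log2 ratio of the DMSO pair was -0.24 on Z, -0.33 on chromosomes 1 to 4 with 1A and -0.63 on chromosomes 10 to 28 with 1B and 4A. In the AZA pair these values were -0.12, -0.15 and -0.27. When the counts expected from the width classes were used as offsets, again 0 chromosomes were higher and 2 were lower, with -0.34 for Un (adjusted p = 3.64e-07, edgeR) and -0.18 for chromosome 14 (adjusted p = 0.0179).

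**Figure D2:**
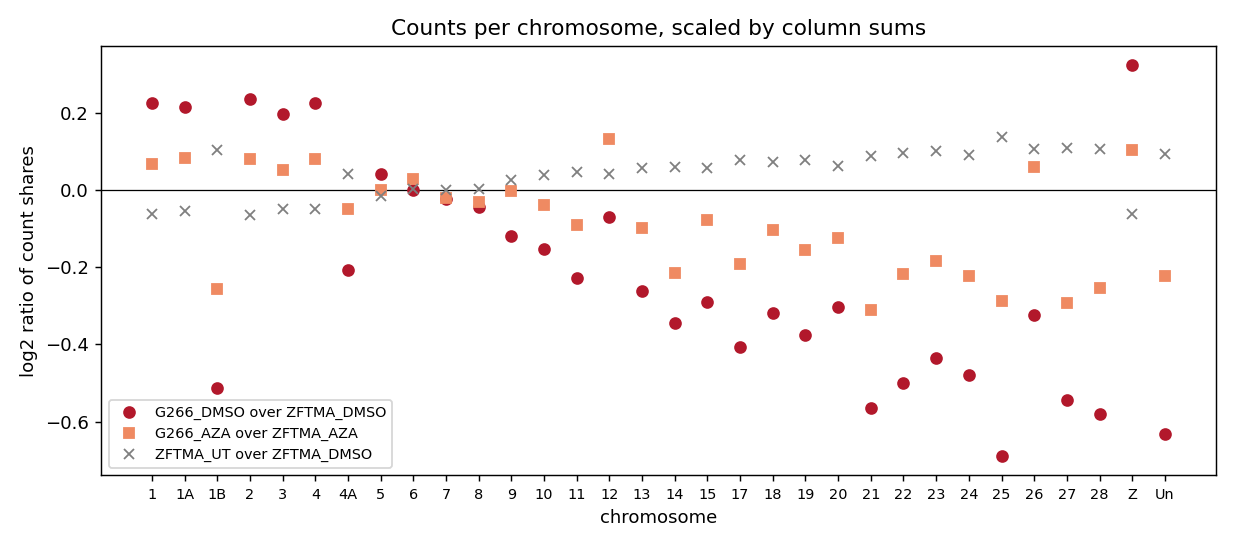
Log2 ratio of count shares (y axis) per chromosome of taeGut3.2.4 (x axis) for the DMSO pair (circles), the AZA pair (squares) and untreated over DMSO-treated ZFTMA (crosses). Chromosome 16 and LG2, with few peaks, are left out. The DMSO pair runs from 0.32 on Z to -0.69 on chromosome 25.

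Windows of 1 Mb divide the same counts, so they show where the chromosome pattern lay and are no second test of it. Of 1036 windows, edgeR's quasi-likelihood test called 64 higher (6.18%) and 27 lower in G266 (2.61%). Those called higher lay mainly on chromosome 4 with 14 of its 70 windows, on Z with 11 of 73, on chromosome 2 with 11 of 157 and on 1A with 9 of 74. Those called lower were found mainly on small chromosomes, with 4 of 12 windows on chromosome 17, 3 of 8 on 24 and 3 of 21 on 4A. All fitted log2 fold changes lay between -0.66 and 0.69, so that no window reached a 2-fold difference in the fit. The calls changed with the scaling and the libraries. With TMM normalization 25 were higher and 86 lower, with ZFTMA_UT in place of ZFTMA_DMSO 0 were higher and 1 was lower, and without the treatment block 0 were called. Under the likelihood ratio test of 1 library against 1, which also changes the test, the DMSO pair gave 208 higher and 74 lower windows and the AZA pair gave 0 of either. Across the windows, the Spearman correlation between the ratios of the DMSO and AZA pairs was 0.80, and 85.9% of the windows had the same sign in both.

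The window with the smallest p, from 4000001 to 5000000 on chromosome 27, held 7323 counts in G266_DMSO and 2108 in G266_AZA, against 9843 in ZFTMA_DMSO, 3047 in ZFTMA_AZA and 12829 in ZFTMA_UT. Its log2 fold change was -0.57 (SE 0.12, adjusted p = 0.00264), and -0.44 (adjusted p = 2.8e-05) with the offsets for width. The strongest window in the other direction, from 35000001 to 36000000 on Z, held 8926 and 2074 counts in G266, against 3999, 1886 and 4295 in ZFTMA (log2 fold change 0.56, SE 0.14, adjusted p = 0.036). The longest runs of adjacent windows called higher covered 3 windows each, from 36000001 to 39000000 on chromosome 1, from 37000001 to 40000000 on chromosome 2, from 28000001 to 31000000 on chromosome 4 and from 49000001 to 52000000 on chromosome 4. The last of these held 20315 and 6254 counts in G266, against 9660, 5613 and 10040 in ZFTMA. The longest run called lower covered 4 windows, from 6000001 to 10000000 on chromosome 17, with 51578 and 11126 counts in G266, against 59977, 14317 and 75991 in ZFTMA. In this run the log2 ratio was -0.49 in the DMSO pair and -0.27 in the AZA pair.

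No Methylation Peak with many fragments was without fragments in the DMSO-treated library of either line. Of 46599 peaks whose summed count over the 4 libraries was at least 100, 0 had no fragment in G266_DMSO and 0 had none in ZFTMA_DMSO. The lowest counts among them were 6 in G266_DMSO and 9 in ZFTMA_DMSO. With AZA, 6 of them had no fragment in G266 and 1 had none in ZFTMA. The peaks were defined on the sum of the DMSO-treated libraries and filtered on the same counts. A count of 0 in these was thus unlikely, so these numbers do not show whether a peak was methylated in 1 line alone. The log2 ratio of the DMSO pair had a median of -0.58 over these peaks, with 1% of them below -1.501 and 1% above 0.96. In the AZA pair the median was -0.25, with 1% below -1.80 and 1% above 1.23, at a lower depth. Untreated over DMSO-treated ZFTMA had a median of 0.07, with 1% below -0.74 and 1% above 0.62. More than 2-fold differences were found at 16.9% of the peaks in the DMSO pair of the lines, against 0.236% between both ZFTMA libraries. In the DMSO pair 391 of them were above and 7472 below, so that they include the general shift of the median under column sums. In the AZA pair the share was 11.9%, with 1045 above and 4483 below. Differences of more than 4-fold were found at 20 peaks in the DMSO pair, at 298 in the AZA pair and at 1 between both ZFTMA libraries. All these numbers were taken without a test. The likeness of the DMSO and AZA pairs was much lower for single peaks than for windows, with a Spearman correlation of 0.24 over the 46599 peaks.

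**Figure D3:**
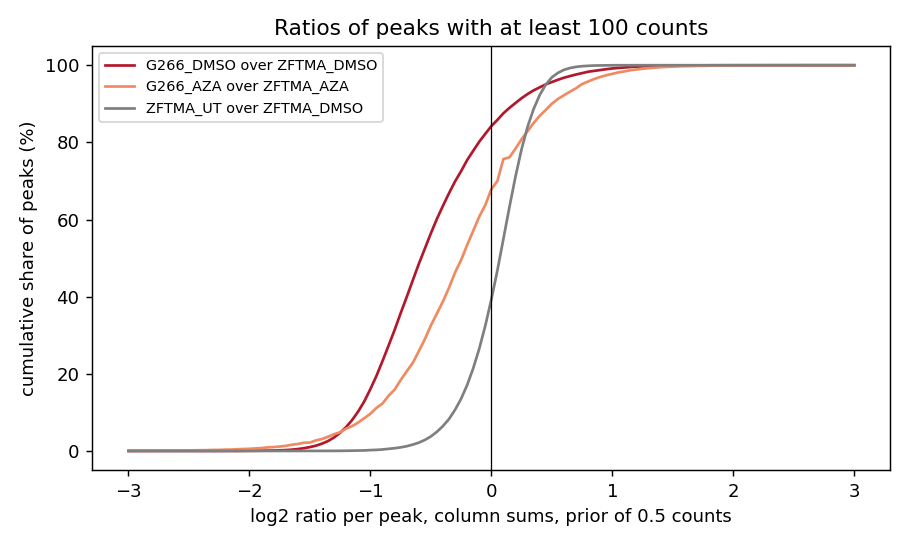
Cumulative share of peaks (y axis, %) by log2 ratio (x axis) for 46599 Methylation Peaks with at least 100 counts. The curves of the DMSO pair (median -0.58) and the AZA pair (median -0.25) are wider than that of untreated over DMSO-treated ZFTMA (median 0.07). Both lie left of it up to a log2 ratio of 0.2. At 0.5 both lie right of it, with 95.6% and 90.0% against 96.8%.

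For single peaks the calls depended on the filter and the test. Over all 719917 peaks, edgeR's quasi-likelihood test with the treatment as a block called 0 peaks higher (0%) and 0 lower (0%) in G266 at an FDR of 0.1. The smallest adjusted p was 0.544. At an unadjusted p below 0.05 there were 41388 higher and 15398 lower peaks, and DESeq2 also called 0. The fit had 1 residual degree of freedom and most counts were low, so its count of 0 does not show that peaks were equal. Without an AZA library, the likelihood ratio test of G266_DMSO against ZFTMA_DMSO called 9446 of all peaks higher and 2056 lower, and without a DMSO library it called 0 in the AZA pair. Among the 124053 peaks with at least 50 counts, 842 were called higher (0.679%) and 2445 lower (1.97%) by the quasi-likelihood test. In this fit edgeR shared the spread fully over the peaks, with infinite prior degrees of freedom, against 2.42 in the fit over all peaks. The disagreement of a single peak between the pairs thus did not enter its p. These calls rest on the scaling, the block and the tool. With TMM normalization 3824 were higher and 1454 lower, without the treatment block 0 were called in either direction, and DESeq2 called 0. Under the likelihood ratio test of 1 library against 1, in place of the quasi-likelihood test, the DMSO pair gave 6 higher and 2 lower and the AZA pair gave 0. The median log2 fold change over these peaks was -0.25 with column sums. It was shifted by 0.25 with TMM normalization, by 0.24 with DESeq2's size factors and by 0.15 with column sums per width class. The shift was -0.15 with the study's read totals and -0.77 with the reads outside peaks. The study scaled its own comparison of treatments by reads outside peaks. Here that scaling gave 92 higher and 56838 lower peaks. Column sums remove any difference between the lines in the total over all peaks.

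Peaks called lower in G266 had a median level of 2.99 CPM in G266_DMSO and 2.75 in G266_AZA, against 7.70 in ZFTMA_DMSO, 6.25 in ZFTMA_AZA and 7.77 in ZFTMA_UT. Peaks called higher had 3.48 and 4.32 in G266, against 1.05, 1.84 and 1.17 in ZFTMA. Fitted log2 differences of the called peaks ranged from 1.00 to 2.56 in size. The untreated ZFTMA library, which entered neither the fit nor the definition of the peaks, lay below both G266 libraries in 98.9% of the peaks called higher, against 24.2% of all 124053 peaks. It lay above both G266 libraries in 98.6% of the peaks called lower, against 56.3% of all. The G266 libraries are shared by this count and the calls, so part of these shares was fixed by the choice of the peaks. The median log2 ratio of ZFTMA_UT over ZFTMA_DMSO was 0.13 in the peaks called higher and 0.0031 in those called lower. Called peaks were unevenly spread over the chromosomes. Lower peaks made up 7.31% of the peaks tested on chromosome 21, 5.77% on Un and 4.87% on chromosome 14, against 1.23% on Z, where 1.27% were called higher.

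Since no peak was called over all peaks, the peaks and genes named in the following were taken from the fit on peaks with at least 50 counts. Of the 3287 peaks called there, 3048 lay on placed chromosomes and had the same direction in both treatments, 807 of them higher and 2241 lower in G266. The 8 named peaks higher in G266 were 332 to 1385 bp wide and lay on chromosomes 2, 3, 4 and Z, 4 of them on chromosome 3. Their log2 fold changes ranged from 1.92 to 2.38 (SE 0.40 to 0.51, adjusted p from 0.0303 to 0.0391, edgeR). The 8 named peaks lower in G266 were 191 to 857 bp wide and were spread over chromosomes 1, 3, 4, 4A, 5, 20, 28 and Z, with log2 fold changes from -2.56 to -1.74 (SE 0.37 to 0.54, adjusted p = 0.0303).

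The peak at chr2:80847393-80848777 had 72 fragments in G266_DMSO and 25 in G266_AZA, against 12 in ZFTMA_DMSO, 10 in ZFTMA_AZA and 22 in ZFTMA_UT. These were 6.95 and 9.81 CPM in G266, against 1.40, 3.67 and 2.14 CPM in ZFTMA, so that both G266 libraries lay above all 3 ZFTMA libraries. The peak at chr2:29576562-29577172 had the largest fitted difference in this direction, with 39 and 11 fragments in G266, against 2, 6 and 6 in ZFTMA. Its log2 ratio was 3.71 in the DMSO pair and 0.92 in the AZA pair. It passed the filter of at least 50 counts mainly through the 39 fragments of G266_DMSO. The peak at chr3:34048972-34049653 lay at SPAST, which encodes the microtubule-severing protein spastin, and had 45 and 14 fragments in G266, against 8, 3 and 14 in ZFTMA. On Z, the peak at chrZ:67394231-67394993 had 46 and 10 fragments in G266, against 9, 1 and 13 in ZFTMA. In all 8 peaks both G266 libraries lay above the 3 ZFTMA libraries. For the 4 fitted libraries this was largely fixed by the choice of the peaks.

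Among the peaks lower in G266, the one at chr1:2098503-2098693 had 7 and 1 fragments in G266, against 38, 4 and 38 in ZFTMA. It had the largest fitted difference of all peaks with at least 50 counts (log2 fold change -2.56, SE 0.54). It passed that filter mainly through the 38 fragments of ZFTMA_DMSO. Among peaks with at least 100 counts, the fitted log2 fold changes lay between -2.04 and 1.92. The peak at chr4:63085446-63086276 had 24 and 3 fragments in G266, against 77, 17 and 83 in ZFTMA. The peak at chr20:6415508-6415893 had 6 and 5, against 40, 12 and 34. Here too every ZFTMA library lay above both G266 libraries after scaling, in this peak as in the other 7, and the choice of the peaks largely fixed this. The AZA-treated libraries contributed only 1 to 8 fragments in G266 to each of these 8 peaks. RRBS of untreated ZFTMA covered CpGs in 3 of them. The methylation degree there was 90.0% over 806 reads at chr28:4624708-4625153, 70.3% over 2295 reads at chr4A:15992270-15993126 and 83.7% over 2137 reads at chr3:31220168-31220828. None of the 8 peaks higher in G266 held a covered CpG. Of the 14 alternatives run on each of the 16 peaks, between 7 and 10 kept the call, and in all of them the direction was the same. As the peaks were chosen with 1 direction in both treatments, this was largely fixed by the choice. Leaving out either library of a pair gave the same fit, so that such fits enter the 14 more than once.

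**Figure D4:**
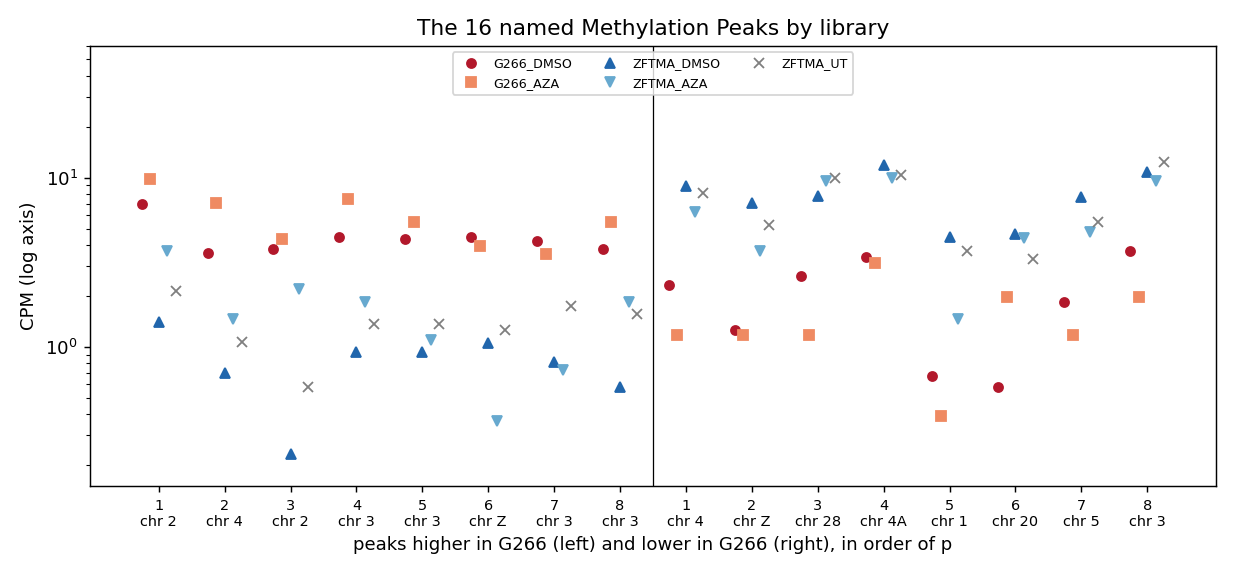
Level in CPM (y axis, log scale) in the 5 MethylCap-seq libraries for 16 named Methylation Peaks (x axis), 8 higher in G266 on the left and 8 lower on the right. Each point is 1 library, and in each peak the 2 G266 points do not overlap with the 3 ZFTMA points. The peaks were chosen for their difference between the lines, which largely fixed this.

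RRBS, which reads the methylation of single CpGs in CpG-rich restriction fragments after bisulfite conversion, gave a second view of ZFTMA. The peaks lower in G266 were often covered by it, whereas those higher in G266 were rarely so. A CpG with at least 10 reads was found in 65.5% of the 2445 peaks called lower and in 6.53% of the 842 called higher, against 33.0% of all 124053 peaks. Where covered, the methylation degree in untreated ZFTMA was high in both. Its median was 84.3% over 55 peaks called higher and 77.7% over 1602 peaks called lower, against 78.8% over 40892 peaks in all. The quartiles were 64.3% and 94.1% among the 55 and 60.7% and 88.9% among the 1602. A degree below 20% was found in 2 of the 55 and in 28 of the 1602. Peaks with a lower fragment level in ZFTMA than in G266 were thus mostly methylated in ZFTMA where RRBS could read them. G266 was not measured by RRBS, and these values rest on 1 library.

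**Figure D5:**
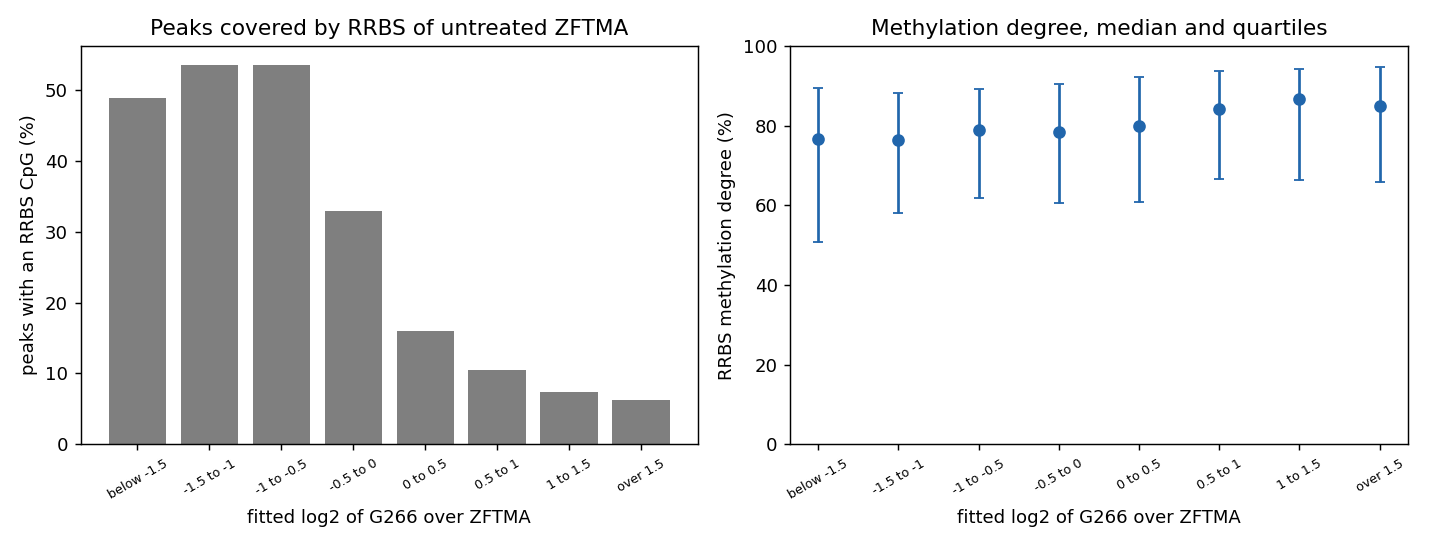
Share of peaks that held an RRBS CpG of untreated ZFTMA (left, %) and their methylation degree (right, %, points are medians and bars quartiles) by bands of the fitted log2 of G266 over ZFTMA (x axis), for peaks with at least 50 counts. Coverage was found in 249 of 509 peaks below -1.5 and in 32 of 514 above 1.5, with median degrees of 76.6% and 84.8%.

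At genes, peaks were more often lower in G266. Positions were known for 3176 genes that the study lists for their response to AZA, and 2758 of them had a peak with at least 50 counts within 2000 bp outside or 500 bp inside a gene end. Of these 2758 genes, 10 (0.363%) had a peak called higher and 221 (8.01%) had a peak called lower in G266. The median log2 fold change of the 5651 peaks at gene ends was -0.50, against -0.25 over all peaks tested, and 3.82% of them were called lower, against 1.97% of all. As this median shifts with the scaling by the values given above, it is relative to the column sums.

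The named genes with a peak higher in G266 were the 7 that had a symbol. Where a gene had several tested peaks at its ends, the values are those of the peak with the smallest p. GLDC, which encodes the glycine decarboxylase of the glycine cleavage system, had 36 and 13 fragments in G266, against 8, 5 and 15 in ZFTMA, at chrZ:63561903-63562837 (log2 fold change 1.72, adjusted p = 0.0622, edgeR). SLC1A1, a glutamate transporter gene, had 26 and 15, against 8, 6 and 7, at chrZ:64227124-64227742 across its end (1.41, adjusted p = 0.0993). FHDC1, a formin family gene, had 73 and 16, against 17, 7 and 15 (1.64, adjusted p = 0.0525). The others were RUFY2, PHYHIPL, B5FYH4_TAEGU and B5G1B4_TAEGU, with log2 fold changes from 1.30 to 1.48. In RNA-seq none of the 7 genes passed the test, with adjusted p from 0.487 upwards. SLC1A1, for example, had 63 and 1879 RNA counts in DMSO- and AZA-treated G266, against 83 and 1604 in ZFTMA.

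The 12 named genes with a peak lower in G266 had log2 fold changes from -1.85 to -1.33 with adjusted p from 0.0413 to 0.0538. CDK10, a cyclin-dependent kinase gene, had 41 and 7 fragments in G266, against 95, 25 and 127 in ZFTMA, at chr11:11578105-11578955. POLR2E, which encodes a subunit of the RNA polymerases, had 38 and 6, against 109, 12 and 122, at chr28:4338914-4339736. PDLIM7 and DOK3 share their peak, at chr13:3450073-3451038, with 66 and 4 fragments in G266, against 114, 27 and 153 in ZFTMA. CD72, which encodes a surface protein of B cells and lies on Z, had 32 and 12, against 80, 28 and 97. SOGA1, SH3RF2, USP28, ZBTB26, ACAP3 and B5G0R1_TAEGU made up the list together with JPH2. In untreated ZFTMA, RRBS covered CpGs in the peaks of 11 of the 12 genes, with methylation degrees from 40.6% at B5G0R1_TAEGU to 90.9% at ZBTB26.

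Few of these genes also differed in expression. Of the 221 genes with a peak lower in G266, 1 was higher (0.452%) and 8 were lower (3.62%) in G266 by edgeR's quasi-likelihood test on the RNA-seq counts. Among all 2758 genes these shares were 2.86% and 3.44%, and over all 18618 genes 1.87% were called higher and 2.34% lower. With RNA scaled by column sums, 2 of the 221 were higher and 2 were lower (0.905% each), against 2.07% and 2.18% of all 2758. Of the 10 genes with a peak higher in G266, 1 was higher and 1 was lower. These genes are named here after their values were seen. FSCN1, which encodes the actin-bundling protein fascin, was the gene with a lower peak and higher RNA. Its peak had 22 fragments in G266_DMSO and 1 in G266_AZA, against 46, 8 and 69 in ZFTMA, and its RNA had 293 and 280 counts in G266, against 138 and 179 in ZFTMA (log2 fold change 1.15, SE 0.17, adjusted p = 0.00011, edgeR). The RRBS degree of that peak in ZFTMA was 26.0%. The genes ENSTGUG00000004788 and ENSTGUG00000008598, which have no symbol in the tables used, were those with a higher peak. The RNA of ENSTGUG00000004788 had 822 and 2952 counts in G266, against 843 and 1641 in ZFTMA (log2 fold change 0.71), and that of ENSTGUG00000008598 had 232 and 196, against 590 and 324 (-0.74). Both passed the test. With peaks in the gene body in place of those at the gene ends, 68 genes had a peak called higher and 296 a peak called lower, and 6 had both. Of the 68, 3 were higher (4.41%) and 4 were lower in RNA (5.88%), and of the 296, 4 were higher (1.35%) and 9 were lower (3.04%), against 2.71% higher and 3.82% lower among all 2803 genes with a tested peak in the gene body.

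COL8A1, which encodes a short-chain collagen, was lower in G266 in both assays. Its peak at chr1:96912248-96913325 had 56 and 8 fragments in G266, against 112, 25 and 144 in ZFTMA (log2 fold change -1.35, adjusted p = 0.0584), and its RNA had 1135 and 140 counts in G266, against 2290 and 260 in ZFTMA (log2 fold change -0.57, SE 0.11, adjusted p = 0.00308). JPH2, which encodes a junctophilin of muscle, had a peak with 24 and 8 fragments in G266, against 53, 28 and 74 in ZFTMA. Its RNA had 3 and 246 counts in G266, against 2 and 389 in ZFTMA, and was called lower (log2 fold change -0.66, adjusted p = 0.047, edgeR), but not with RNA column sums (adjusted p = 0.124).

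Members of 12 lists of developmental, neuronal and structural genes mostly had values below 0 on the scale of column sums, as had the peaks at gene ends in general. Since 0.363% of all 2758 genes had a peak called higher and 8.01% a peak called lower, counts of 0 or 1 in lists of this size are no result about a list. The value given for a gene is that of the peak with the smallest p at its ends. The medians of the lists cover all tested peaks of their genes, so a gene's value is not comparable with them. Of the 8 collagen genes with a tested peak, 0 were called higher and 1, COL8A1, was called lower, with a median of -0.59 over 18 peaks, against -0.50 over all peaks at gene ends. COL6A1 had -0.71 and COL6A2 -1.28, with adjusted p of 0.217 and 0.132. All 7 HOX genes, regulators of the body axis, had a tested peak, and 0 were called in either direction, with a median of -0.52 over 15 peaks. Among 10 other developmental transcription factors SOX17, a regulator of endoderm, was called lower. Its peak at chr2:116511975-116512705 had 49 and 34 fragments in G266, against 105, 64 and 95 in ZFTMA (log2 fold change -1.11, adjusted p = 0.0773). The median of this list was -0.66 over 28 peaks. The peak of FOXF1 was not called (-0.90, adjusted p = 0.144, edgeR). FOXF1 was the member of this list with higher RNA in G266 (log2 fold change 0.95, adjusted p = 0.00565, edgeR). In other lists, RNA also passed at genes without a called peak. WNT9A (log2 fold change 1.68) and DDX4 (0.59) were higher in G266, and COL21A1 (-1.07) and COL4A6 (-0.38) were lower. With RNA column sums WNT9A did not pass (adjusted p = 0.103, edgeR).

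Of 9 Wnt pathway genes 0 were called, with a median of -0.54 over 23 peaks. WNT1 had -1.21 and the Wnt inhibitor SFRP1 -1.15, and DKK2 had 0.90, with adjusted p of 0.147, 0.109 and 0.24 (edgeR). At WNT1 there were only 2 fragments in G266_AZA and 5 in ZFTMA_AZA. The log2 ratio of DKK2 was 1.28 in the DMSO pair and -0.15 in the AZA pair. DKK2 had 14 fragments in ZFTMA_DMSO and 32 in ZFTMA_UT. Of 10 neurotransmitter receptor genes GABRB2, a GABA-A receptor subunit, was called lower, with 31 and 11 fragments in G266, against 71, 26 and 89 in ZFTMA (-1.35, adjusted p = 0.062). Of 9 voltage-gated channel genes with a tested peak KCNS1, a potassium channel subunit, was called lower, with 68 and 26, against 153, 40 and 206 (-1.07, adjusted p = 0.0874). Of 9 cadherins and protocadherins CDH20 was called lower, with 70 and 10, against 135, 29 and 182 (-1.29, adjusted p = 0.0617). RNA of GABRB2, KCNS1, CDH20 and SOX17 did not pass the test, but had at most 9 counts in any library, too few to compare the lines. Of the 7 genes followed up in the study with a position, MMP9, a matrix protease, was called lower, with 30 and 8 fragments in G266, against 66, 16 and 82 in ZFTMA (-1.25, adjusted p = 0.0863), and ANK1, GABRD, HBEGF, HES1, IKBKE and NGB had values from -0.95 to 0.05 that did not pass.

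The 2 genes of the DNA methylation machinery with a position, DNMT3B and MBD4, had -0.85 and -0.62, with adjusted p of 0.2 and 0.358. Of 7 muscle genes, 13 cytokine and receptor genes and 3 germline genes with a tested peak 0 were called, with medians of -0.39 over 14 peaks, -0.26 over 24 peaks and -0.44 over 7 peaks. IL15, a cytokine gene, had the highest value among them with 1.25 (adjusted p = 0.11).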

How the data were processed

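MethylCap-seq of 5 samples was used, with RNA-seq of 4 samples and RRBS of 1 sample as further readouts. The MethylCap-seq table of the authors holds unnormalized fragment counts of each Methylation Peak. They had mapped the reads to taeGut3.2.4 with Bowtie2 2.1.0, removed duplicates and defined the peaks where the coverage of the DMSO-treated samples, added up over both lines, passed a threshold tuned on the RRBS data. For RNA-seq the authors deposited raw read counts per gene (STAR 2.3.0), and for RRBS the coverage and the methylation degree in percent per CpG (Bismark 0.9.0). Removal of duplicates limits the counts of strong peaks more than those of weak ones.

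Counts were scaled by column sums and tested by the quasi-likelihood functions of edgeR 4.0.16 under R 4.3.3 (glmQLFit and glmQLFTest, common dispersion from the most abundant 5% of features, Benjamini-Hochberg FDR of 0.1), with the treatment as a block and log2 of G266 over ZFTMA. No filter was applied to peaks in the fit over all peaks. DESeq2 1.42.0 was an alternative. Standard errors were computed back from the F statistic. Sums per chromosome (at least 1000 counts) and per 1 Mb window by peak midpoint (at least 200 counts, unplaced sequence left out) were tested in the same way. For chromosomes the dispersion came from all 34 names, since 5% of them were too few. Ratios per pair of single peaks used a prior of 0.5 counts. RNA-seq used TMM factors. The RRBS degree of a peak was weighted by reads over CpGs with at least 10 reads. Scripts were tested on simulated data. The simulated peaks had a smaller dispersion than the fits here and no treatment effect, so this checks the scripts and not the calls.

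Because the fit over all peaks called no peak, the rule for named peaks and genes was applied to the fit on peaks with at least 50 counts, which was one of the alternatives. It took the first 8 peaks by p in each direction outside unplaced sequence, with one direction in both treatments and at least 100 kb apart, and the first 12 genes with a symbol in each direction. Gene positions and symbols came from the supplementary gene tables, which hold genes selected for their response to AZA in these libraries and give no strand, so both gene ends were used. The members and lists were chosen with earlier results of these data known. Whether the libraries came from separate cultures is not given in the sources used here, and the spread between pairs may be technical.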

Additional observations from a re-analysis of the deposited data

Results flagged for a closer look

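In 5 chromosomes the DMSO pair and the AZA pair of the lines differed in sign, which was not tested. On chromosome 12 the log2 ratio of G266 over ZFTMA was -0.0698 in the DMSO pair and 0.131 in the AZA pair. On chromosome 26 it was -0.324 in the DMSO pair and 0.0597 in the AZA pair. Chromosome 16, with 6 peaks, had -1.06 in the DMSO pair and 0.0304 in the AZA pair. Chromosomes 5 and 6 lay near 0, with 0.0413 and -0.00162 on chromosome 5 and -0.000483 and 0.0285 on chromosome 6 in the DMSO and AZA pairs.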

How the results depend on the processing

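Among all peaks, the count of 0 in each direction held with edgeR's quasi-likelihood test and DESeq2 under the alternatives run on them, except where only peaks with at least 50 counts entered (842 higher and 2445 lower in G266) and where 1 library was left out. Then the other pair was tested by a likelihood ratio test, and counts ranged from 0 to 9446 higher and from 0 to 2056 lower. Alternatives on the peaks with at least 50 counts were chosen after seeing the data. The numbers higher and lower were 3824 and 1454 with TMM normalization, 2004 and 26468 with the study's non-duplicate totals, 92 and 56838 with the reads outside peaks, 197 and 1020 with column sums per chromosome, 6183 and 7925 with column sums per width class, 9408 and 31813 with ZFTMA_UT added, and 0 and 0 both with DESeq2 and with no replicate block (the treatment as block left out). Leaving out 1 library gave 0 to 6 higher and 0 to 2 lower. The legacy form of edgeR gave 1059 higher and 4541 lower, and at least 100 counts gave 133 higher and 3577 lower. With ZFTMA_UT in place of ZFTMA_DMSO, 738 were higher and 689 lower, so that the excess of lower peaks was not found there. For chromosomes, TMM normalization gave 1 higher and 10 lower, the study's totals 25 lower, no replicate block 1 lower, and leaving out 1 library 0 to 12 lower. For 1 Mb windows, higher and lower were 25 and 86 with TMM normalization, 0 and 160 with the study's totals, 0 and 0 with no replicate block, and 0 and 1 with ZFTMA_UT. Leaving out 1 library gave 0 to 208 higher and 0 to 74 lower windows, and offsets for width gave 46 lower. The tilt between narrow and wide peaks was 2.33 against ZFTMA_UT. With peaks in the gene body, 4 genes had a higher peak with lower RNA and 4 a lower peak with higher RNA, and with RNA column sums 2 genes had the second pattern. Causes were not tested. None of the 490 values of named peaks and genes under the alternatives changed direction, and 235 of them lost the call. The direction was largely fixed, since the named peaks and genes were chosen as called. Both numbers hold repeated fits, as leaving out either library of a pair gave the same one. With 2 pairs of libraries and few fragments in the AZA libraries, depth limits every single peak.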
